A study of Mus musculus with 2 samples.

Results

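Lysosomes are acidic organelles in which hydrolases break down proteins, lipids and sugar chains, and a coat of heavily glycosylated membrane proteins lines them on the inside. Most of the hydrolases reach the organelle through mannose 6-phosphate tags, and loss of a single enzyme leaves its substrate stored in the cell, often with disease of the brain. The 36 genes described here were taken from a fixed list of names: 7 genes for membrane proteins and 29 for hydrolases and their activators. All 36 were found by name among the 55536 annotated genes.

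The tissue was the left cerebral cortex, taken at 18 to 20 months of age from female mice of the hybrid B6CASTF1/J, a cross of C57BL/6J with CAST/EiJ, and its total RNA was sequenced. Each library was made from 300 ng of RNA to which ERCC spike-in RNAs were added. The labels give 1 untreated group of 2 libraries, biological replicates 1 and 2, and no contrast, so no test between groups was possible. Both biosamples carry the same donor entry, so it is not clear that they are separate animals, and the spread between them may be technical. The depth was 32504959 expected counts for replicate 1 and 24899781 for replicate 2. Each level is given as TPM, a read count per transcript length as a share of the library, from alignment-based gene tables, and errors are SD over the 2 libraries. As a check of the tissue, all 8 neuron markers and all 8 astrocyte markers were detected. They were led by Snap25 at 1449 ± 80.3 TPM and Slc1a2 at 672 ± 24.4 TPM (SD, n = 2). These lists do not tell cortex from other brain regions. All 5 genes of a striatum list were also detected, led by Ppp1r1b at 90.4 ± 8.12 TPM (SD, n = 2). In bulk tissue, fewer cells of a type and less RNA per cell cannot be told apart.

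All 36 genes reached 1 TPM in both libraries, a level reached by 58.3% of the 22015 nuclear protein-coding genes. Together they took 120621 counts of the first library and 86051 of the second, 0.373% and 0.347% of the counts on genes. Their levels spanned a wide range, from 661 ± 26.5 TPM for Psap to 1.75 ± 0.0283 TPM for Sgsh (SD, n = 2). Psap alone made up 32.3% of their summed TPM in replicate 1 and 31.9% in replicate 2. Of the 36, 6 had a mean of 100 TPM or more, 23 lay between 10 and 100 TPM, and 7 lay under 10 TPM. The median member had 24.9 TPM (replicate 1) and 22.6 TPM (replicate 2), against 15.5 and 16.0 TPM for the 12844 detected protein-coding genes, and 22 members lay above the median of those genes. The members' level on the TPM scale depended on the kind of table: in the alignment-free tables, which quantified the same libraries without a genome alignment, their median was 45.6 and 49.3 TPM.

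**Figure D1:**
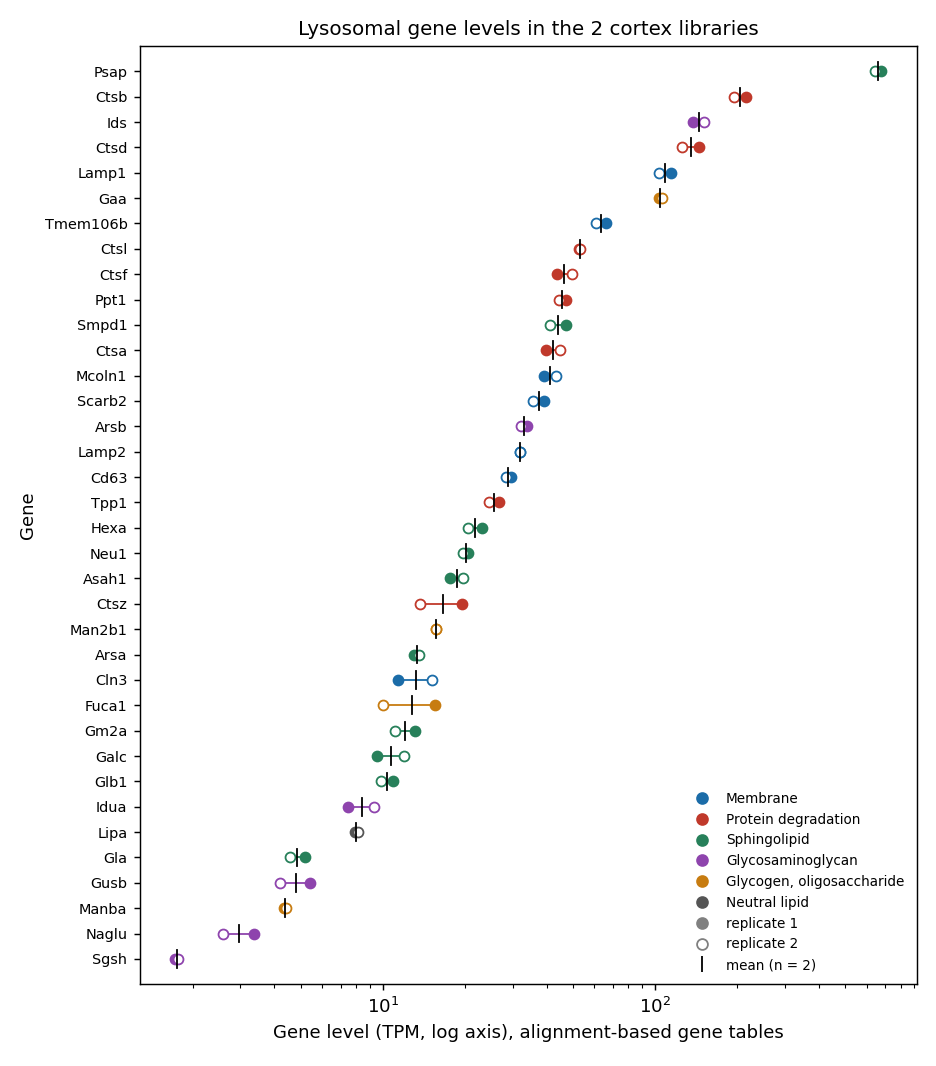
TPM of each of the 36 genes (horizontal log axis) in replicate 1 (filled circle) and replicate 2 (open circle), with a black tick at the mean of the 2 libraries; colours give the role group. Psap stands apart at 679 and 642 TPM, and 4 of the 7 genes under 10 TPM act on glycosaminoglycans (purple).

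The gene with the highest level was Psap (ENSMUSG00000004207.14, mm10 chr10:60277627-60302597, plus strand). It encodes prosaposin, the precursor of the 4 saposins, small proteins that present sphingolipids to their hydrolases. It reached 679 TPM (replicate 1) and 642 TPM (replicate 2), from 38980 and 27548 counts. Both libraries placed it far above every other member, and by mean TPM it ranked 30 among the 12844 detected protein-coding genes. The annotation lists 5 Psap transcripts, all coding, which differ at their first exon or at a short stretch inside the saposin-coding region. At that stretch a 9-base exon (chr10:60297537-60297545) is present only in Psap-205. Psap-201 instead starts the next exon 6 bases earlier (chr10:60299092-60299097), and Psap-204 holds 4 and 5 bases from 2 other places (chr10:60296003-60296006 and chr10:60299042-60299046). The joined coding sequences, with 24 shared bases on each side, are printed because the share of the 9-base form is the main result for this gene. They are read from the GENCODE M21 transcripts on mm10, between the exons that lie within chr10:60295946-60299229. Capitals mark the bases between the shared parts, and Psap-202 has none.
Psap-205: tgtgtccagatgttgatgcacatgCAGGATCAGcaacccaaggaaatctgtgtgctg
Psap-202: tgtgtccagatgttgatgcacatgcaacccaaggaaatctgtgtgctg
Psap-201: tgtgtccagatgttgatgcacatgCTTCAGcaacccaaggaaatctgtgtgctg
Psap-204: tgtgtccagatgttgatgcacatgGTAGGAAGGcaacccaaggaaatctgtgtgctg

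Most of the Psap TPM lay on the form with the 9-base exon. Psap-205 was at 535 and 507 TPM, a share of 78.7% and 79.0% of the gene's TPM (78.9% ± 0.169, SD, n = 2). Transcripts with none of the extra bases, Psap-202 and Psap-203, together held 20.9% and 20.6%. Psap-203 has another first exon (chr10:60284461-60284531) than Psap-205 (chr10:60277628-60277782), and no annotated transcript joins that exon to the 9-base one. The forms with the 6 extra bases and with the 4 and 5 extra bases held 0.281% and 0.109% on average. In the alignment-free tables the 9-base form held 74.2% and 73.0%, and the form with the 4 and 5 extra bases 6.20% and 7.49%. Both kinds of table thus put the 9-base form first in both libraries, while the share of Psap-204 depended on the table.

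**Figure D2:**
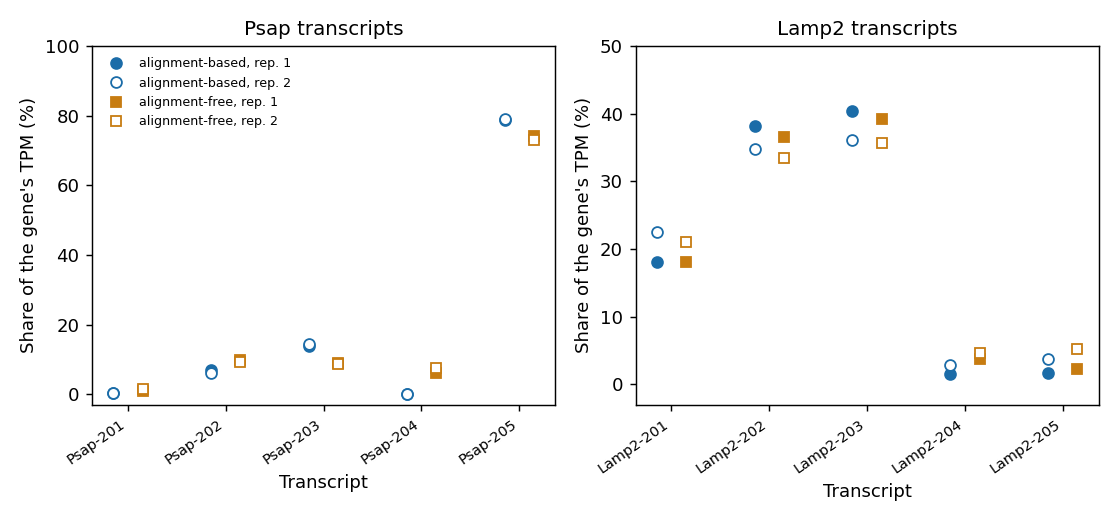
Share of the gene's TPM (vertical axis, percent) held by each annotated transcript of Psap (left) and Lamp2 (right; its axis ends at 50%) in replicate 1 (filled) and replicate 2 (open), from alignment-based (circles) and alignment-free (squares) tables. Psap-205 lies between 73.0% and 79.0% in all 4 tables, and no Lamp2 transcript exceeds 40.4%.

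Among the membrane proteins, Lamp1, an abundant glycoprotein of the lysosomal coat, was at 115 and 103 TPM. Tmem106b, a membrane protein of late endosomes and lysosomes linked to frontotemporal dementia, was at 66.1 and 61.0 TPM. Mcoln1, the calcium-releasing channel TRPML1, was at 39.3 and 43.4 TPM. These 3 genes kept the same order in both libraries. Scarb2, the receptor that carries glucocerebrosidase to the lysosome, was at 39.0 and 35.8 TPM, and the tetraspanin gene Cd63 at 29.5 and 28.4 TPM. Cd63 had fractional counts (637.5 and 429), so a part of its reads was shared out. Cln3, mutated in juvenile Batten disease, was the lowest of the 7 at 11.4 and 15.2 TPM. The median of the membrane genes was 37.4 ± 2.27 TPM (SD, n = 2).

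Lamp2 (mm10 chrX:38401357-38456454, minus strand) was at 32.0 TPM in both libraries (32.04 and 32.05). Its 3 coding transcripts share the luminal part of the protein and end in alternative last exons, which encode different membrane spans and cytosolic tails. The tail of LAMP-2A (Lamp2-201) makes this form the receptor of chaperone-mediated autophagy. Lamp2-202 carries the LAMP-2B end and Lamp2-203 the LAMP-2C end, named here from their coding sequence. The coding parts of the last exons are printed because they are what tells the 3 forms apart. They are from the GENCODE M21 transcripts on mm10, minus strand, at chrX:38405432-38405571, chrX:38421712-38421851 and chrX:38402139-38402281 in that order. Capitals mark the stop codon.
Lamp2-201: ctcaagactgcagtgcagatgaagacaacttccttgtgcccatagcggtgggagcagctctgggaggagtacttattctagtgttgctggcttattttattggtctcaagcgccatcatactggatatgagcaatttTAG
Lamp2-202: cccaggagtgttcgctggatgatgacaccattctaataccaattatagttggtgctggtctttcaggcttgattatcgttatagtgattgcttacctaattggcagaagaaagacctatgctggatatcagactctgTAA
Lamp2-203: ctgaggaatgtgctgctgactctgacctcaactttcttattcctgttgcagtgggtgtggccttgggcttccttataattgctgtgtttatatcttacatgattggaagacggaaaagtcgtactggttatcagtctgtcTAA

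The stretches are 140, 140 and 143 bases long, and global alignment gave an identity of 56.7% for A with B, 55.9% for A with C and 63.7% for B with C. The C form held 40.4% of Lamp2 TPM in replicate 1 and 36.1% in replicate 2. The B form held 38.2% and 34.7%, and the A form 18.1% and 22.5%. The A form was the lowest of the 3 in all 4 transcript tables. The C form was slightly above the B form in each table. Both shares were lower in replicate 2, so their ranges over the 2 libraries overlapped. With 2 libraries and a small gap, their order is not taken as settled. A retained-intron model (Lamp2-204) and a processed transcript (Lamp2-205) held 2.20% ± 0.859 and 2.78% ± 1.45 (SD, n = 2).

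The genes for protein degradation had a median of 46.3 ± 1.25 TPM (SD, n = 2). Ctsb, a cysteine protease, was at 216 and 196 TPM, and Ctsd, the main aspartic protease of the lysosome, at 146 and 126 TPM. Both were higher in replicate 1. Ctsd overlaps the gene Gm49369 on the same strand and had fractional counts (6403 and 4125), so a part of its reads was shared out. The cysteine proteases Ctsl and Ctsf were at 52.7 and 53.3 TPM and at 43.6 and 49.5 TPM. Ppt1, which removes palmitate from proteins, was at 47.3 and 44.3 TPM, and Tpp1, which cuts tripeptides from protein ends, at 26.8 and 24.5 TPM. Both are genes of neuronal ceroid lipofuscinosis. Ctsa, a carboxypeptidase that also protects beta-galactosidase and neuraminidase, was at 39.9 and 44.8 TPM. Ctsz, a carboxypeptidase made in brain mainly by microglia, was the lowest at 19.5 and 13.7 TPM, with no overlap of the deposited credibility bounds (17.4 to 20.5 against 11.8 to 14.7 TPM).

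The sphingolipid genes other than Psap were lower. Smpd1, acid sphingomyelinase, was at 47.2 and 41.2 TPM. Hexa, the alpha chain of beta-hexosaminidase and the Tay-Sachs gene, was at 23.1 and 20.7 TPM, and Neu1, a sialidase, at 20.7 and 19.7 TPM. Asah1, acid ceramidase, was at 17.7 and 19.8 TPM. These 4 genes had ranges over the libraries that overlapped only for Neu1 and Asah1. Arsa, arylsulfatase A, which is deficient in metachromatic leukodystrophy, was at 13.1 and 13.6 TPM. Gm2a, the activator that lifts GM2 ganglioside for Hexa, was at 13.1 and 11.1 TPM. Galc, the galactosylceramidase of Krabbe disease, was at 9.50 and 12.01 TPM, higher in replicate 2. From Arsa down to Glb1, no gene was separated from its neighbour in the order. Glb1, lysosomal beta-galactosidase, was at 10.9 and 9.83 TPM with fractional counts (565 and 383), since Tmppe overlaps it on the same strand. Gla, the alpha-galactosidase of Fabry disease, was the lowest at 5.17 and 4.55 TPM. With Psap included the median of the 10 genes was 16.0 ± 0.902 TPM (SD, n = 2).

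The glycosaminoglycan enzymes had the lowest median of the groups with more than 1 gene, 6.60 ± 0.219 TPM (SD, n = 2), and contained 1 gene far above it. Ids, the X-linked iduronate 2-sulfatase of Hunter syndrome, was at 138 and 152 TPM, a mean level exceeded only by those of Psap and Ctsb among the 36 genes. Arsb, arylsulfatase B, was at 33.8 and 32.3 TPM. Idua, alpha-L-iduronidase, was at 7.46 and 9.31 TPM, so the sulfatase and the iduronidase that act in turn on iduronate residues differed many-fold in level. Gusb, beta-glucuronidase, was at 5.42 and 4.19 TPM. The heparan sulfate enzymes Naglu and Sgsh, both genes of Sanfilippo syndrome, were the lowest members of all, at 3.37 and 2.58 TPM and at 1.73 and 1.77 TPM. Sgsh ranked 12281 of 12844 genes and rested on 150 and 127 counts.

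Among the enzymes of glycogen and of glycoprotein sugars, Gaa, the acid alpha-glucosidase of Pompe disease, was at 103 and 106 TPM. Man2b1, alpha-mannosidase, was at 15.8 and 15.6 TPM, and Manba, beta-mannosidase, at 4.32 and 4.42 TPM. Fuca1, alpha-fucosidase, was at 15.6 and 10.03 TPM, lower in replicate 2. This was the widest spread of the 36 genes, with a coefficient of variation of 30.6% against a median of 7.05% for the members. Lipa, the acid lipase that frees cholesterol and fatty acids from their esters, was at 7.91 and 8.11 TPM.

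In the order of mean levels there were 35 pairs of neighbours, and in 18 of them both libraries of the higher gene lay above both libraries of the lower. Ids and Ctsd were not separated, nor were Lamp1 and Gaa. A run of 5 genes (Ctsf, Ppt1, Smpd1, Ctsa and Mcoln1) between 41.3 and 46.6 TPM on average held no separated neighbours. The same was true of the run from Neu1 to Man2b1.

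Other genes of the organelle, from lists that do not contain the 36, give the setting. Of 90 such genes 86 reached 1 TPM, and their median was 25.2 ± 0.219 TPM (SD, n = 2), close to the 23.7 ± 1.65 TPM of the members. The proton pump that acidifies the organelle was higher. Of the 20 genes listed here for its subunits and accessory proteins, 18 reached 1 TPM, and the list's median was 125 ± 6.53 TPM. The list was led by Atp6v0c at 505 ± 20.9 TPM and Atp6v1b2 at 258 ± 12.1 TPM (SD, n = 2). The pump also serves synaptic vesicles. Its subunits Atp6v1b1, listed at 0 in both libraries, and Atp6v0d2, at 0.02 and 0 TPM, are known from kidney and from osteoclasts. The 22 of 24 other hydrolases that were detected included the protease Lgmn at 40.8 ± 3.90 TPM (SD, n = 2). Ctsw and Ctse, proteases of immune cells and other tissues, were at 0.185 ± 0.106 and 0.02 ± 0.0283 TPM (SD, n = 2). The 18 other membrane genes all reached 1 TPM, among them Lamp5, a LAMP relative of neurons, at 117 ± 14.8 TPM and Laptm4a at 74.2 ± 6.24 TPM (SD, n = 2). All 12 genes that sort enzymes to the lysosome were detected, led by the receptor Sort1 at 136 ± 0.587 TPM and the retromer subunit Vps29 at 82.9 ± 12.8 TPM (SD, n = 2). Of the 16 regulators all were detected, led by Rraga at 57.3 ± 2.23 TPM and Lamtor2 at 45.0 ± 6.04 TPM, both of the machinery that recruits mTORC1 (SD, n = 2).

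Several members were represented by transcripts that the annotation does not class as protein coding, such as models with a retained intron. For 30 of the 36 genes such a transcript is annotated, against 79.0% of protein-coding genes. In the alignment-based tables their share of a gene's TPM had a median of 5.12% and 6.94% over the members and 9.80% and 13.2% over detected protein-coding genes. In the alignment-free tables the members had 8.35% and 19.4% and the protein-coding genes 11.9% and 15.3%, so the members were lower in replicate 1 and higher in replicate 2. In the alignment-based tables the share passed 10% in both libraries for 16 of 36 members, beside 47.0% of protein-coding genes. TPM is per length, so a short model with few reads can hold a large share.

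Ctsb (mm10 chr14:63122462-63145923, plus strand) was led by such a model in all 4 tables. Its coding transcript Ctsb-201, 4743 bases long, was at 86.7 and 77.5 TPM. The model Ctsb-202 is 801 bases long and classed as a retained intron, and it was at 128 and 116 TPM, 59.3% and 59.5% of the gene. In the alignment-free tables it held 62.5% and 61.8%. Of its 801 bases, 710 are coding sequence of Ctsb-201 and 91 lie outside the coding transcript. Reads within the 710 bases match both models. On the opposite strand Ctsb overlaps Fdft1 (42.4 and 31.7 TPM), as Ppt1 overlaps Cap1 (116.6 and 108 TPM), Ctsa overlaps Pltp (39.9 and 35.3 TPM), Idua overlaps Dgkq (25.7 and 26.3 TPM) and Ctsz overlaps Nelfcd (20.7 and 20.5 TPM). The libraries are labelled as stranded, but whether the counting used the strand is not given in the sources at hand.

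Arsa (chr15:89472476-89477425, minus strand) was likewise led in all 4 tables by a retained-intron model. Arsa-201 held 65.6% and 72.2% in the alignment-based tables and 45.5% and 52.0% in the alignment-free ones. In the alignment-free tables the coding Arsa-202 held 44.2% and 35.4%, so the lead was small in replicate 1. Its 2699 bases contain the 1518 bases of coding sequence and 77 bases outside the coding transcripts. Tpp1 had 67.7% and 63.8% on non-coding transcripts, and 83.7% and 81.3% in the alignment-free tables, shares above those of Ctsb in each table, but its leading model differed between the kinds of table. In the alignment-based tables Ctsf had 52.6% and 58.7%, Idua 49.5% and 62.5%, and Asah1 42.4% and 46.9%. At the other end, Psap, Ids, Hexa, Gla, Gm2a and Ctsz have no annotated non-coding transcript.

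For Ppt1 the 2 kinds of table named different transcripts. The coding Ppt1-201 led with 73.1% and 70.1% in the alignment-based tables and held 17.8% and 16.0% in the alignment-free ones. Ppt1-203, classed as a target of nonsense-mediated decay, held 6.45% and 6.02% in the former and 64.3% and 59.9% in the latter. It is 2573 bases long, contains all 918 coding bases of the gene's coding transcripts and has 200 bases outside them. Tmem106b-205, a coding model of 507 bases, likewise held 4.13% and 4.41% in the former and 42.2% and 41.0% in the latter. Gaa-201 held 37.7% and 35.3% in the former and about 0 in the latter. Over the members, the leading transcript was the same in all 4 tables for 28 of 36 genes, and it differed for Cd63, Tmem106b, Ctsl, Tpp1, Ppt1, Asah1, Idua and Manba.

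**Figure D3:**
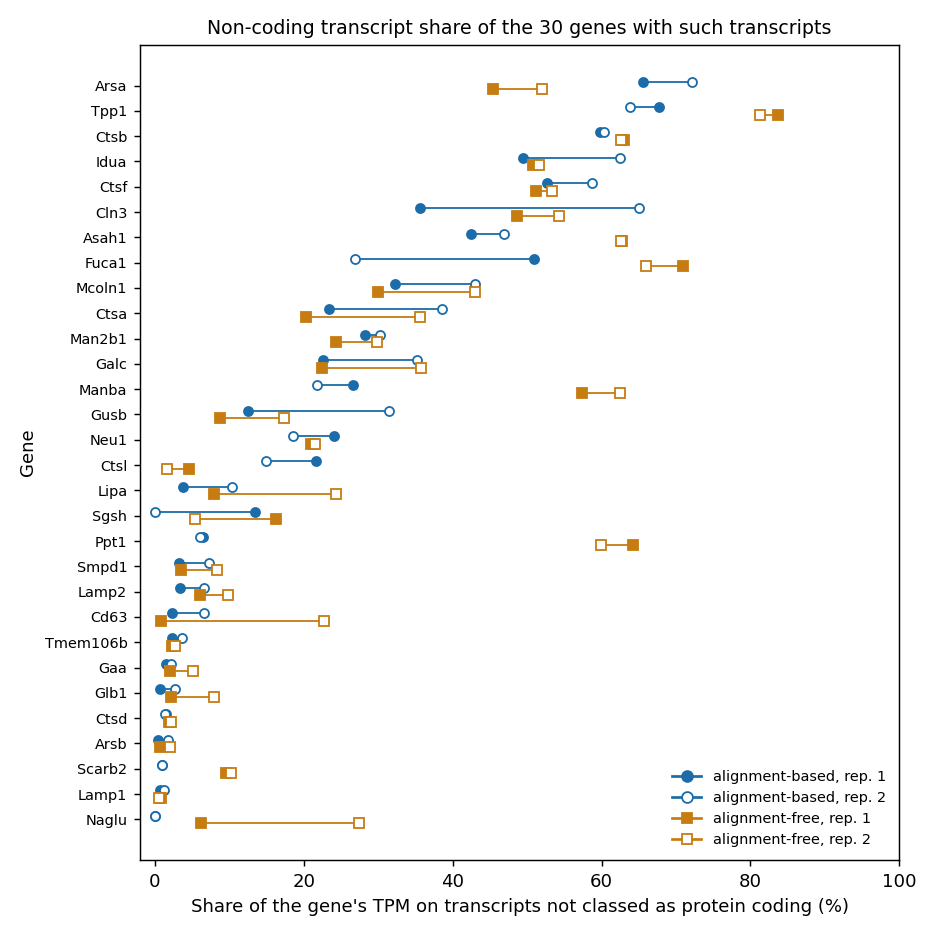
Share of each gene's TPM on transcripts not classed as protein coding (horizontal axis, percent) for the 30 genes that have such transcripts, in replicate 1 (filled) and replicate 2 (open), from alignment-based (circles) and alignment-free (squares) tables. Ppt1 moves from 6.45% and 6.02% to 64.3% and 59.9% between the kinds of table, while Ctsb lies near 60% in all 4.

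The 2 libraries were then compared by the log2 ratio of scaled counts, replicate 2 over replicate 1. Among 18246 genes averaging at least 10 counts, 14.3% differed by more than 1.5-fold in either direction. None of the 36 members did, and 1 (Ctsz) did with alignment-free counts. The members are well counted, with at least 138.5 counts on average, and among the 12569 genes with 100 counts or more the share was 3.77%. Their median absolute log2 ratio was 0.15, against 0.13 for those 12569 genes.

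The ratio was below 0 for 24 members and above 0 for 12, with a median of -0.11, beside 9118 of all 18246 genes (50%) below 0. When counts were scaled to the spike-ins, all genes moved up by a median of 0.16, the members' median became 0.05 and 15 lay below 0, beside 23.5% of all genes. Relative to all genes the members' median was -0.11 under both scalings. A change of scaling moves every gene by nearly the same amount, so this is not a separate check. The other lysosomal genes stood near the members, with 64 of 86 below 0 and a median of -0.11, and of the proton pump genes 17 of 18 lay below 0, with a median of -0.16. The cell type marker lists also had medians below 0, all 8 of them. The medians were -0.11 for neurons, -0.10 for astrocytes and -0.20 for endothelium. For pericytes and meninges the median was -0.07, for choroid plexus and ependyma -0.20 and for striatum -0.19. The choroid plexus value rests on 3 of 5 markers, those with enough counts. Of these lists only the endothelial one had a higher summed level in replicate 2 (106 and 129 TPM). That rise lay mostly in Slc2a1 (32.1 and 57.9 TPM), and 4 of the 6 endothelial ratios were below 0. Microglia (-0.29, summed level 137 and 121 TPM) and oligodendrocytes (-0.33, 642 and 542 TPM) were lowest, with all 8 markers of each below 0 and none at 0 TPM. The part of these cell types in the lysosomal difference was not tested.

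The lowest member was Ctsz (chr2:174427493-174439039, minus strand), with 590 counts in replicate 1, 311 in replicate 2 and a log2 ratio of -0.54. Gusb followed at -0.44 (271 and 153 counts) and Naglu at -0.42 (187 and 107 counts). Smpd1 and Gm2a both stood at -0.28 and Ctsd at -0.26. At the upper end, Galc (chr12:98202294-98259459, minus strand) had 805 and 768 counts and a ratio of 0.31, followed by Manba at 0.19 and Sgsh at 0.14. The bounds deposited with the TPM values did not overlap between the libraries for 9 of the 36 genes, beside 16.8% of all 18246 genes and 18.8% of the 12569 genes with 100 counts or more. Of the 9, Psap, Ctsb, Ctsd, Lamp1, Smpd1, Scarb2, Ctsz and Gm2a were higher in replicate 1 and Galc was higher in replicate 2. These bounds describe the quantification of each library and not the spread between animals. They need not contain the TPM given here. For Psap in replicate 1 the bounds were 652 to 666 TPM, around a posterior mean of 659, while the TPM was 679.

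**Figure D4:**
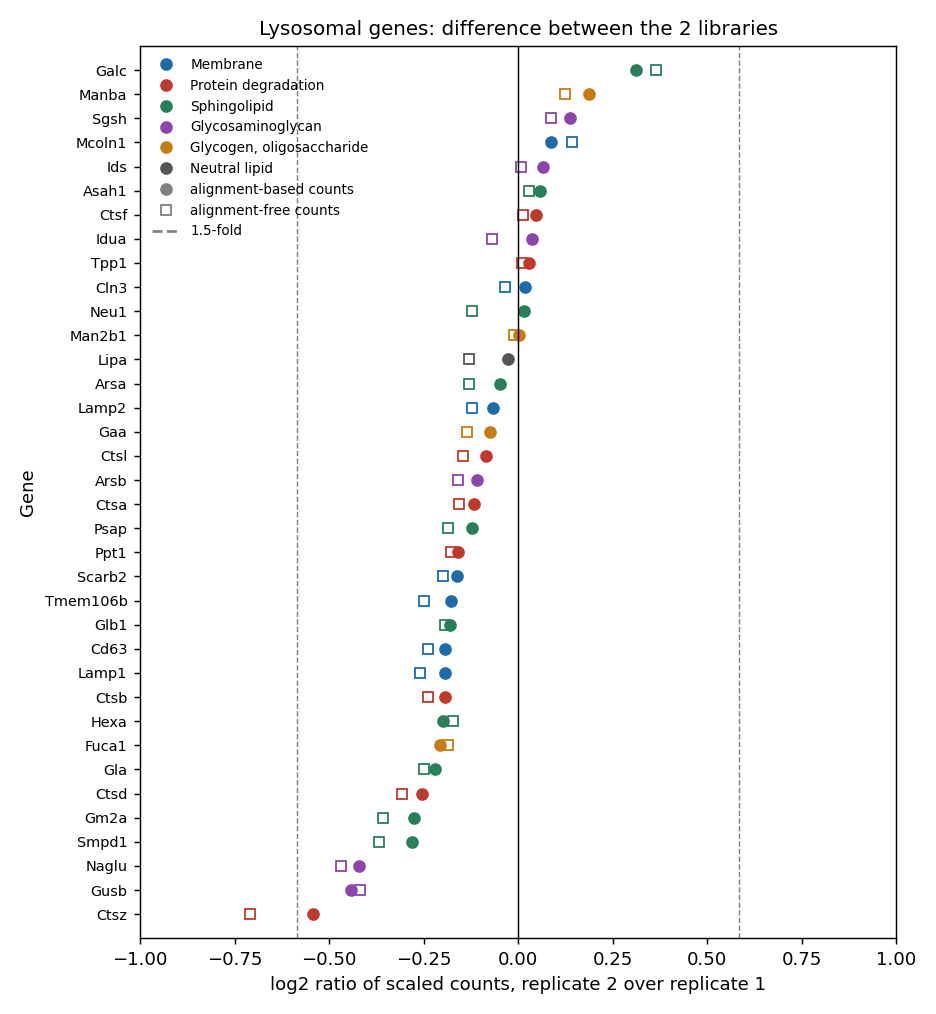
Log2 ratio of scaled counts, replicate 2 over replicate 1 (horizontal axis), for each of the 36 genes from alignment-based (circles) and alignment-free (squares) counts; colours give the role group and dashed lines mark a 1.5-fold difference. No circle passes a dashed line, and 1 square, that of Ctsz, does.

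For a few genes the TPM and the counts gave different pictures of the libraries. Fuca1 (chr4:135920735-135940311, plus strand) had a log2 TPM ratio of -0.63, replicate 2 over replicate 1, and a count ratio of -0.21 on the same scale. Its coding transcript Fuca1-201 was at 7.63 and 7.34 TPM. The 436-base Fuca1-202 was at 4.92 and 1.51 TPM, and the 401-base Fuca1-205 at 2.24 and 0 TPM, so the difference in the gene's TPM lay in short models. Cln3 had a count ratio of 0.02 and a log2 TPM ratio of 0.41. Its share on non-coding transcripts was 35.6% in replicate 1 and 65.1% in replicate 2, spread over 6 and 9 of its 10 annotated non-coding models.

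The 2 kinds of table differed in scale. Of 15688 genes compared, 59.6% were more than 1.5-fold higher in the alignment-free tables in both libraries. Of the members 23 of 36 were, near that background, and none was lower. The members' median ratio was 1.56 and 1.60, against 1.58 and 1.61 over all genes. Genes other than structural and mitochondrial RNA held 50.5% and 50.9% of the alignment-based TPM but 82.5% and 84.2% of the alignment-free TPM. After both tables were rescaled over those same genes, 3.34% of 15352 genes were more than 1.5-fold higher in the alignment-free tables in both libraries. Of the members 1 did, Manba, with ratios of 1.56 and 1.85. Tpp1 (1.497 and 1.51), Asah1 (1.49 and 1.53), Fuca1 (1.43 and 1.81) and Cln3 (1.61 and 1.26) lay nearest to it. Manba rested on 284 and 249 counts. Part of its alignment-free TPM lay on short non-coding models that changed between the libraries. Manba-202 was at 3.91 and 0 TPM there, and Manba-211 at 0 and 5.48 TPM. On the rescaled values the members' medians were 0.963 and 0.972, against 0.980 and 0.982 over all genes.

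Promoters of lysosomal genes are known for the CLEAR element, a palindrome-like site bound by TFEB and its relatives, whose core is the E-box CACGTG. Tfeb, Tfe3 and Mitf themselves were at 4.98 ± 1.09, 15.3 ± 0.375 and 3.40 ± 0.148 TPM (SD, n = 2). RefSeq promoters on GRCm38.p6, from 250 bases before to 50 after the start, were found for 34 of the 36 members. The letters CACGTG occurred in 13 of their 37 promoters (35.1%) and in 7.15% of all 32851 promoters. The longer GTCACGTG, which contains CACGTG and was searched on both strands, occurred in 10 of the 37 (27.0%) and in 2.25% of all. The 13 genes with CACGTG had a median of 41.3 TPM and the other members 21.9 TPM, whereas the 10 genes with GTCACGTG had 13.3 TPM and the others 27.3 TPM. The 10 genes are all among the 13, so these comparisons are not independent, and no link between the letters and level is drawn from them. Stretches of up to 30 bases around GTCACGTG or its reverse complement, in capitals, are printed for 6 members to show where the shared letters lie. They are on the gene's strand, at chr7:142387907-142387936 for Ctsd (minus), chr8:13159122-13159151 for Lamp1 (plus), chr8:3500435-3500464 for Mcoln1 (plus), chr11:101070008-101070037 for Naglu (plus), chr7:126583341-126583370 for Cln3 (minus) and chrX:134601183-134601212 for Gla (minus). No binding was measured in these libraries.
Ctsd: cgcccgcgtctCACGTGACccgttgagggc
Lamp1: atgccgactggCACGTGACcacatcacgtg
Mcoln1: gggtcgcgcttGTCACGTGttcagttcagg
Naglu: ccaaccttcagGTCACGTGgcccgaggtcg
Cln3: tcacgggtactGTCACGTGacccccaacct
Gla: gtgagatctcgGTCACGTGagcaactctcg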

How the data were processed

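For each library the authors deposited 1 gene table and 2 transcript tables. Their accompanying text names mm10 and GENCODE M21. Which aligner and quantifiers were run is not given in the sources used here. The alignment-based files contain expected counts, TPM, posterior mean TPM with credibility bounds, and isoform shares in percent, per the file headers; estimated counts and TPM are the deposited values of the alignment-free files. The deposited percent values were recomputed from TPM. Reads were placed on the C57BL/6J reference, and the effect of CAST/EiJ variants was not analysed here.

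For the library ratio, deposited expected counts were rounded, genes with a mean of 10 counts were kept, and log2 CPM were taken with edgeR 4.0.16 (TMM, prior count of 2). These steps were tested on simulated counts with known folds and sampling noise only. That test cannot show how the ratios behave under the larger spread of real libraries. A pseudocount of 0.1 TPM was used between kinds of table. Spike-ins and entries absent from the gene annotation were not counted as genes. Annotated short-RNA genes were counted, and were left out only where TPM was rescaled. No p-value is given, since there is 1 group. Every member is named. Of each other lysosomal list the 2 highest genes and those under 1 TPM are named, and of cell type lists the highest. A few genes under this rule are not reported here. The members and lists were chosen with earlier results of these data known.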

Additional observations from a re-analysis of the deposited data

How the results depend on the processing

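The precision rests on 2 libraries of 1 group, and depth limits the genes with the fewest counts, such as Naglu and Sgsh. The members' median level of 23.7 TPM became 47.4 TPM with the alignment-free tables, 46.8 TPM after rescaling without structural and mitochondrial RNA, and 19.2 TPM over coding transcripts only, an alternative chosen after seeing the data. It lay between 22.6 and 24.9 TPM with 1 library left out. The share of Psap-205 was 73.6% with the alignment-free tables and 78.3% with posterior means, and between 78.7% and 79.0% with 1 library left out. The share of Lamp2-203 lay between 36.1% and 40.4% in single libraries. The median non-coding share of 6.03% became 13.9% with the alignment-free tables and 13.5% with posterior means, and was 5.12% and 6.94% in the single libraries. Members past 1.5-fold between the libraries numbered 1 with alignment-free counts and 0 under DESeq2 size factors, total counts, spike-in totals, a prior count of 0.5 and both other count filters. Members past 1.5-fold between the kinds of table numbered 1 after rescaling, and 25 to 28 in single libraries. The median library ratio was 0.05 with spike-in totals and between -0.16 and -0.06 under the other settings tried. All 36 members were detected in either library alone, 31 at 5 TPM and 27 at 10 TPM. No paired analysis was possible because the labels give a single group.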
